A study of Mus musculus with 17 samples.

Results

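The transporters that move bile acids, bilirubin, and drugs across the membranes of the mouse hepatocyte were examined in the liver of chow, 1B, HFD, and HFD+1B mice. They were 9 genes, taken by symbol from the log2 ratio table of the series: Slco1a1, Slco1a4, Slco1b2, and Slc10a1 for uptake from blood, Abcb11, Abcc2, and Abcb1a for efflux into the bile canaliculus, and Abcc3 and Abcc4 for efflux back into the sinusoid. All probes with 1 of these symbols were used, 12 of the 41174 non-control probes of the array, and all 12 passed the signal filter, so that 12 of 34649 probes and 9 of 19349 genes tested were transporters of this set. The livers came from 17 male mice, labeled C57BL/6N and described as C57BL/6J in the methods, with no age in the labels. Chow mice (n = 4) ate chow for 3 months and were gavaged with maltose. The 1B mice (n = 4) ate chow and received 1 gavage of 5 g/kg ethanol. HFD mice (n = 4) ate a high-fat diet for 3 months and were gavaged with maltose. HFD+1B mice (n = 5) had both the high-fat diet and the ethanol gavage. For mice on HFD, the methods describe the control as isocaloric dextrin-maltose and place death 9 hours after the gavage. Each array carried Cy5-labeled liver cDNA of 1 mouse against a Cy3-labeled common mouse RNA, and a value is the log2 ratio of liver to that reference, comparable between mice for 1 probe but not between probes. Whole liver was used, so fewer cells of a type and less RNA per cell cannot be told apart.

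Hepatocytes draw bile acids and organic anions from portal blood through the sodium-dependent carrier NTCP, encoded by Slc10a1, and the sodium-independent OATP carriers of the Slco1 family. On the opposite side of the cell, ATP-driven pumps export them into bile: BSEP (Abcb11) carries bile salts, MRP2 (Abcc2) carries conjugated bilirubin, glutathione, and drug conjugates, and the P-glycoprotein Abcb1a carries hydrophobic drugs. MRP3 (Abcc3) and MRP4 (Abcc4) lie in the basolateral membrane and return conjugates and bile acids to blood, and they are known as an overflow route in cholestasis. These genes are under the control of nuclear receptors such as FXR, CAR, PXR, and PPAR-alpha, and some Slco genes also follow the sex-dependent pattern of growth hormone.

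Depth on an array is signal over background. The median background-subtracted Cy5 signal over all probes was 79.5 to 116 intensity units per array in chow mice, 49 to 112.5 in 1B mice, 43 to 78 in HFD mice, and 70 to 138.5 in HFD+1B mice. Members were well above background on all 17 arrays except the dimmer Abcc4 probe, which was so on 15, and no member spot was saturated. Hepatocyte markers were present as the label says, with 9 of 10 listed markers tested and above background on all 17 arrays (Tf was not tested). All 6 pancreatic acinar markers also passed on all 17 arrays, so passing the filter is a weak sign of expression. A difference passed, or was called, at a Benjamini-Hochberg adjusted p of at most 0.05 in limma, taken over all 34649 probes, and a gene was called on its brightest probe. The arrays were spread over 5 slides, with more than 1 group on every slide, and within-slide differences are given beside the results.

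**Figure D1:**
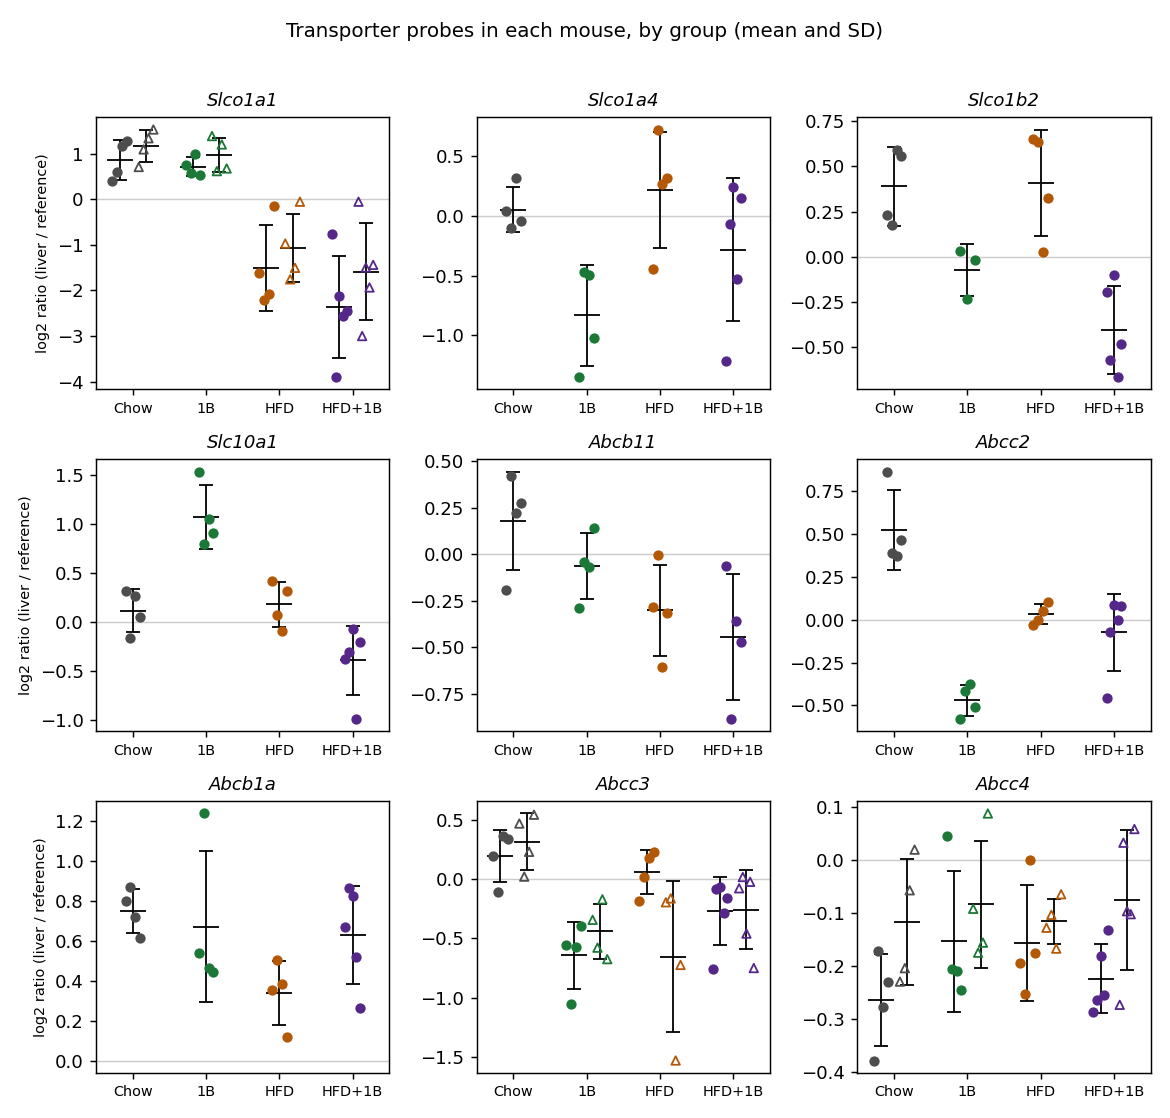
Log2 ratio of liver to reference (y axis, scale differs between panels) for the 9 transporter genes in each mouse, by group. Filled circles are the brightest probe and open triangles the other probe of Slco1a1, Abcc3, and Abcc4, with horizontal lines at the mean and bars of 1 SD (n = 4, 4, 4, and 5, 1 fewer for Slco1b2 in 1B and Abcb11 in HFD+1B). Slco1a1 lies below 0 in all 9 mice on HFD, Slc10a1 is highest in the 4 1B mice, and Abcc2 is highest in the 4 chow mice.

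Slco1a1 encodes OATP1A1, a broad-range uptake carrier that male mouse liver expresses at higher level than female liver, and it showed the largest differences of the 9 genes. Its brighter probe read 0.40, 0.59, 1.17, and 1.28 in the chow mice and 0.75, 0.57, 0.99, and 0.53 in the 1B mice. It read -1.62, -2.20, -2.09, and -0.16 in the HFD mice and -0.76, -3.89, -2.12, -2.57, and -2.44 in the HFD+1B mice. Every mouse on HFD was below every mouse on chow diet, and HFD mouse 4 and HFD+1B mouse 1 were nearest to them. Compared with chow mice, Slco1a1 was 5.19-fold lower in HFD mice (log2 difference -2.38, SE 0.49, adjusted p = 0.00553 in limma) and 9.28-fold lower in HFD+1B mice (-3.21, SE 0.46, adjusted p = 0.000121). HFD+1B mice were also 8.37-fold below 1B mice (-3.07, SE 0.46, adjusted p = 0.000429). The median Cy5 signal of the probe was 71.2 in HFD mice and 85 in HFD+1B mice, against 1195 in chow mice, and the background correction added an offset of 50, which compresses the ratios of dim spots. In the authors' table the same differences were -3.03, -4.07, and -3.88 (adjusted p of 0.00249 to 0.0259). Among the alternatives, the HFD call was lost only with the methods' Tukey test after Benjamini-Hochberg adjustment. Within slides the difference was -3.37 to -2.02 on 3 slides for HFD against chow and -5.05 to -1.15 on 4 slides for HFD+1B against chow.

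Ethanol alone left no detectable change of Slco1a1 on chow diet: 1B minus chow was -0.15 with a 95% interval of -1.18 to 0.88. On HFD the ethanol difference was -0.84 (interval -1.82 to 0.14, adjusted p = 0.229), and it passed the threshold when HFD+1B mouse 1 was left out (-1.24, adjusted p = 0.0437). The difference between both ethanol effects was -0.69 (interval -2.11 to 0.73, adjusted p = 0.624). In order of level, chow and 1B did not differ beyond their spread, nor did HFD and HFD+1B, and the step between 1B and HFD was 2.23 (adjusted p = 0.00655).

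Slco1a1 is read by a pair of probes that target different stretches of the transcript, and they are shown because both carry this result. The first 30 of 60 bases of each, as deposited for the array, are:
Slco1a1 brighter probe: ccaagttcgagaacgatggagaactgaaaa
Slco1a1 other probe: ctgaatttatccttcaatgttggaggtatt
The other probe gave -2.24 (SE 0.45, adjusted p = 0.00484) for HFD against chow and -2.75 (SE 0.43, adjusted p = 0.000229) for HFD+1B against chow. Among member probes and probes of their close relatives, the longest run of identical bases between probes of different genes was 9 bases over 279 pairs, so no probe of a paralog holds a long stretch of a member's probe. Signals that a related transcript could add through imperfect matches were not tested.

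The 250 bases before the Slco1a1 start in RefSeq (GRCm38.p6, chr6:141946963-141947212, minus strand, a newer build than that of the array annotation) hold the nuclear receptor hexamer AGGTCA on either strand 2 times, shown in capitals:
Slco1a1 promoter: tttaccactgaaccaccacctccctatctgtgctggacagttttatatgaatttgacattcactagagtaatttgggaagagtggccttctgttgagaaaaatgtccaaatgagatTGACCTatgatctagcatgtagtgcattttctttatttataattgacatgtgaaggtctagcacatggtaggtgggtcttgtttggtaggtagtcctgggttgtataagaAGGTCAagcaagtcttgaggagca
This hexamer lay in 16.3% of 32851 promoter windows of 300 bases, searched on both strands, so its presence is common, and it starts 134 and 24 bases before the start site. Neither the STAT5 motif TTCNNNGAA, in 8.3% of windows, nor the antioxidant response element TGACNNNGC, in 12.4%, was in the Slco1a1 window. The FXR inverted repeat, which is 2 hexamers facing each other around 1 base, was searched for as an exact copy only. It was in 3 of the 32851 windows and in none of the 10 entries found for 8 of the 9 members. Copies with a mismatch were not searched for, so this absence cannot show that a member lacks an FXR element. Abcc3 had no entry.

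The genes whose pattern over the 17 arrays was most like that of Slco1a1 were Cyp2c54, a cytochrome P450 (root mean square difference 0.545 on the log2 scale after centring each gene), Cyp7b1, the oxysterol 7-alpha-hydroxylase of the alternative bile acid pathway (0.569), and C8b, a complement component (0.581). They were the 3 nearest of 17977 genes with a value on all arrays, and Slco1a1 was the member with an SD over arrays of at least 0.7, the limit set for this search. Cyp7b1 and C8b are also in a list of 13 genes known to be higher in male than female liver, of which 9 fell and 1 rose in HFD mice against chow and 11 fell in HFD+1B mice against chow. Its median log2 difference in HFD+1B mice was -2.17, beside 0.00051 for all genes tested. This list was written with earlier results of these data known, and Cyp7b1 and C8b count in it. Its decrease is therefore not independent of their likeness to Slco1a1. Hsd3b5, a steroid dehydrogenase of male liver, fell by 5.42 and Keg1 fell by 3.59 on the log2 scale. Of 11 tested genes of a female-biased list, 3 rose and 4 fell in HFD+1B mice against chow, among them Cyp2b13 at 1.64 and Cyp2a4 at -2.73. Against chow, 4.5% of all genes rose and 6.47% fell in HFD mice, and 8.89% rose and 7.4% fell in HFD+1B mice.

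Slc10a1, the sodium-dependent bile acid carrier, moved in opposite directions after ethanol on the 2 diets. It read 0.32, -0.16, 0.26, and 0.055 in chow mice and 1.53, 0.79, 1.05, and 0.90 in 1B mice. It read 0.42, 0.077, -0.093, and 0.31 in HFD mice and -0.38, -0.31, -0.073, -0.98, and -0.21 in HFD+1B mice. All 4 1B mice stood above all 13 other mice, whereas HFD mice overlapped both chow mice and HFD+1B mice. Slc10a1 rose 1.93-fold in 1B mice against chow (log2 difference 0.95, SE 0.19, adjusted p = 0.0069) and was 0.78 to 1.21 higher on each of 3 slides. This call was lost with Cy5 alone, with the methods' Tukey test after Benjamini-Hochberg adjustment, and when a fold of at least 2 was asked for. HFD alone gave 0.062 with a 95% interval of -0.33 to 0.46.

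On HFD, ethanol lowered Slc10a1 1.48-fold (log2 difference -0.57, SE 0.18, adjusted p = 0.0345), with 1 HFD mouse inside the range of the HFD+1B mice. This call was lost in 11 of 33 alternative settings, among them the authors' own log2 ratio table (-0.57, adjusted p = 0.0565) and leaving out HFD mouse 1, HFD mouse 4, HFD+1B mouse 1, or HFD+1B mouse 4 (adjusted p of 0.0544 to 0.0953), and within slides the difference was -1.29 to 0.020 on 4 slides. Against 1B mice, HFD+1B mice were 2.74-fold lower (-1.46, SE 0.18, adjusted p = 6.47e-05) and lower on each of 4 slides. The difference between both ethanol effects was -1.52 (SE 0.26, interval -2.06 to -0.97, adjusted p = 0.00573), and it passed in all 30 alternatives that gave a value.

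The promoter of Slc10a1 is shown because the gene had the largest difference between both ethanol effects among the 9. RefSeq lists a pair of starts, and the upstream one (GRCm38.p6, chr12:80968706-80968955, minus strand) holds the STAT5 motif TTCNNNGAA, in capitals, 53 bases before the start:
Slc10a1 promoter: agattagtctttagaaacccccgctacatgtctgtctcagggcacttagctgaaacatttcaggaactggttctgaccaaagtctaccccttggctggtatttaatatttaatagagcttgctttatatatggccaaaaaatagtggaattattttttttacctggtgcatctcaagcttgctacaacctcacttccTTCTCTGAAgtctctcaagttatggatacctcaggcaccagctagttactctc
The other start has an AGGTCA hexamer 87 bases before it. These are matches of letters only. The STAT5 motif was also in the search windows of Slco1b2 and Abcc4, and the antioxidant response element was in those of Abcc2, Abcb1a, and Abcc4.

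Slco1b2 encodes OATP1B2, a hepatic uptake carrier of organic anions and many drugs in mouse. It read 0.23, 0.17, 0.59, and 0.56 in chow mice and 0.033, -0.24, and -0.019 in the 3 1B mice with a value. It read 0.65, 0.63, 0.027, and 0.32 in HFD mice and -0.20, -0.58, -0.10, -0.67, and -0.48 in HFD+1B mice. All 5 HFD+1B mice were below all chow and HFD mice. Slco1b2 fell 1.76-fold in HFD+1B mice against HFD (log2 difference -0.81, SE 0.15, adjusted p = 0.00156) and 1.73-fold against chow (-0.79, SE 0.15, adjusted p = 0.0014), on each of 4 slides in both. The 3 1B values were also all below the chow values, with a difference of -0.46 (interval -0.82 to -0.11) that did not pass (adjusted p = 0.185). Groups lay apart, in either direction, for 12% of all genes between 1B and chow mice. The difference between both ethanol effects was -0.35 (interval -0.83 to 0.13, adjusted p = 0.42).

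Slco1a4 encodes OATP1A4, a carrier of bile acids and cardiac glycosides that is also found at the blood-brain barrier, and its gene neighbors Slco1a1 and Slco1b2 on chromosome 6. It read 0.038, -0.10, 0.32, and -0.045 in chow mice and -1.34, -0.47, -0.49, and -1.02 in 1B mice. It read -0.45, 0.72, 0.27, and 0.32 in HFD mice and -1.21, -0.070, 0.24, -0.53, and 0.15 in HFD+1B mice. The 4 1B mice lay below the 4 chow mice, and the HFD+1B mice spread over both. Between 1B and chow mice, 12% of all genes had groups apart, in either direction. The 1B difference of -0.88 (SE 0.29) had an adjusted p of 0.115, and it passed with the slide as a fixed block (-0.81, adjusted p = 0.041) but not as a random block (-0.86, adjusted p = 0.0657), and it also passed with the 1B and chow mice fitted alone (adjusted p = 0.0233), and with HFD+1B mouse 1 left out (adjusted p = 0.0408). Slco1a4 was higher in HFD mice than in 1B mice (1.05, SE 0.29, adjusted p = 0.0231), with the groups apart, and passed in no other comparison. Its difference from chow in HFD mice, 0.17 (interval -0.44 to 0.77), had the opposite sign to that of Slco1a1, except with Cy5 alone, where it was -0.29, and without HFD mouse 2, where it was -0.0036.

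Abcc2, the canalicular conjugate pump MRP2, was lower than chow in each of the other groups, and most so in 1B mice. It read 0.87, 0.39, 0.37, and 0.47 in chow mice and -0.58, -0.42, -0.38, and -0.51 in 1B mice. It read -0.027, 0.0018, 0.049, and 0.11 in HFD mice and -0.46, -0.071, 0.087, -0.0016, and 0.082 in HFD+1B mice. The 4 chow mice were above all others, and the 1B mice were below all HFD mice and overlapped HFD+1B mice only at HFD+1B mouse 1. Abcc2 fell 1.99-fold in 1B mice (log2 difference -0.99, SE 0.12, adjusted p = 0.000138), 1.41-fold in HFD mice (-0.49, SE 0.12, adjusted p = 0.0178), and 1.51-fold in HFD+1B mice (-0.60, SE 0.12, adjusted p = 0.00177), each against chow and each lower on every slide that held both groups. The HFD call was lost when chow mouse 1 was left out (-0.38, adjusted p = 0.0606). It was also lost with Cy5 alone, with the methods' Tukey test after Benjamini-Hochberg adjustment, and when a fold of at least 2 was asked for.

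Ethanol did not add a detectable decrease of Abcc2 on HFD: HFD+1B minus HFD was -0.10 with an interval of -0.35 to 0.14. The difference between both ethanol effects was 0.89 (SE 0.17, interval 0.53 to 1.25, adjusted p = 0.0109), a call lost with Cy5 alone (0.84, adjusted p = 0.0623) and when a fold of at least 2 was asked for. HFD+1B mice were 0.40 above 1B mice (SE 0.12, adjusted p = 0.038), a call lost in 16 of 33 alternatives, including leaving out any of the 4 1B mice. The Abcc2 promoter is shown as that of the other gene whose ethanol difference depended on diet (GRCm38.p6, chr19:43782058-43782307, plus strand), with an antioxidant response element TGACNNNGC starting 98 bases and an AGGTCA hexamer starting 49 bases before the start in capitals:
Abcc2 promoter: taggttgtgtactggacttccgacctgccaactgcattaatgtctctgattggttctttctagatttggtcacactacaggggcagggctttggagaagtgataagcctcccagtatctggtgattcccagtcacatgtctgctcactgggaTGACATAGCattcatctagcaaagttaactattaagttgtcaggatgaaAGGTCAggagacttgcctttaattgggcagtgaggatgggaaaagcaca

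**Figure D2:**
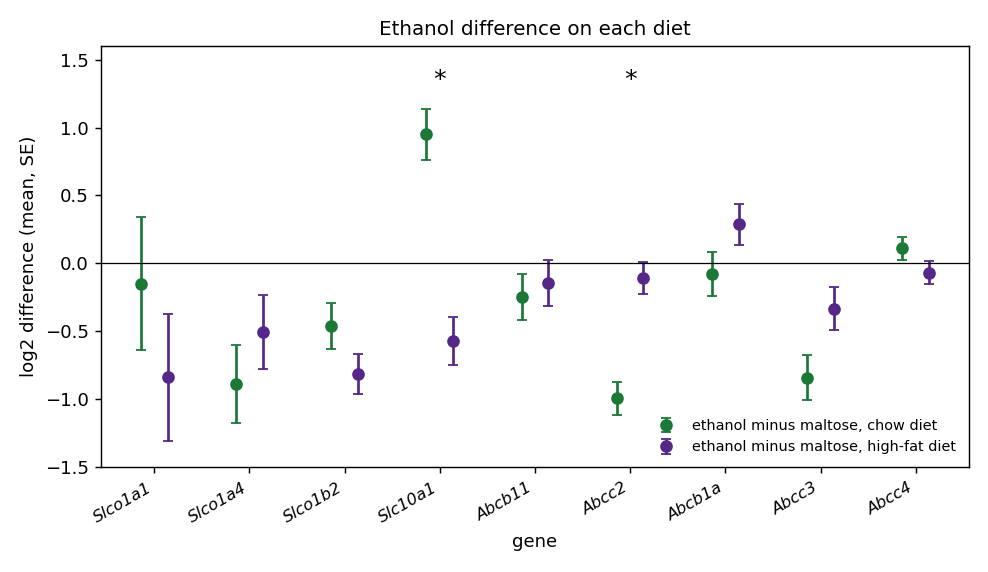
Log2 difference between ethanol-gavaged and maltose-gavaged mice (y axis, mean and SE from limma) for each transporter (x axis, brightest probe), on chow diet (1B minus chow, green) and on HFD (HFD+1B minus HFD, purple). Stars mark the genes whose difference between diets passed the threshold: Slc10a1 changed from 0.95 on chow to -0.57 on HFD, and Abcc2 from -0.99 to -0.10.

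Abcb11, the bile salt export pump, read -0.19, 0.42, 0.22, and 0.28 in chow mice and -0.29, -0.042, -0.068, and 0.14 in 1B mice. It read -0.28, -0.0041, -0.61, and -0.31 in HFD mice and -0.065, -0.88, -0.36, and -0.47 in the 4 HFD+1B mice with a value. Chow mouse 1 lay among the other groups, and the other 3 chow mice were above all mice of the other groups. Abcb11 was 1.54-fold lower in HFD+1B mice than in chow mice (log2 difference -0.63, SE 0.17, adjusted p = 0.0187), and this call was lost without chow mouse 2, chow mouse 4, or HFD+1B mouse 2 (adjusted p of 0.0559 to 0.0643). It was also lost with Cy5 alone, with the methods' Tukey test after Benjamini-Hochberg adjustment, and when a fold of at least 2 was asked for. Within slides the difference was -1.10 to 0.13 on 3 slides. HFD alone gave -0.48 (interval -0.84 to -0.12, adjusted p = 0.0827) and 1B alone -0.24 (interval -0.60 to 0.11, adjusted p = 0.625).

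Abcb1a, 1 of the 2 mouse drug-efflux P-glycoproteins, passed the threshold in none of the comparisons. Its probe was dim, with a median Cy5 signal of 50.5 to 81.5 by group, so the offset of the background correction compresses its ratios. It read 0.80, 0.87, 0.72, and 0.61 in chow mice, 0.54, 1.24, 0.46, and 0.45 in 1B mice, 0.35, 0.50, 0.39, and 0.12 in HFD mice, and 0.67, 0.86, 0.82, 0.52, and 0.26 in HFD+1B mice. All HFD mice were below all chow mice, and 19.4% of all genes had groups apart in this comparison, in either direction. The difference for Abcb1a was -0.41 (interval -0.75 to -0.069, adjusted p = 0.117). This difference passed when 1B mouse 2, the high value of its group, was left out (adjusted p = 0.0444) and with the chow and HFD mice fitted alone (adjusted p = 0.0352). Its neighbor Abcb1b, the other drug-efflux P-glycoprotein, differed by 0.56 (SE 0.14, adjusted p = 0.018) between HFD and chow mice and by -0.68 (SE 0.13, adjusted p = 0.0023) between HFD+1B and HFD mice, both opposite in sign to Abcb1a, whose HFD difference was 0.012 with Cy5 alone.

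Abcc3, the basolateral pump for glucuronides and bile acids, was lower in 1B mice. Its brighter probe read 0.19, -0.11, 0.36, and 0.34 in chow mice and -0.55, -1.05, -0.57, and -0.39 in 1B mice. It read -0.19, 0.021, 0.18, and 0.23 in HFD mice and -0.76, -0.079, -0.068, -0.28, and -0.16 in HFD+1B mice. The 4 1B mice lay below all chow mice and all HFD mice. Abcc3 fell 1.79-fold in 1B mice against chow (log2 difference -0.84, SE 0.16, adjusted p = 0.00646), with -0.94 to -0.75 on 3 slides. This call was lost with Cy5 alone, with the methods' Tukey test after Benjamini-Hochberg adjustment, and when a fold of at least 2 was asked for. In HFD+1B mice against chow the Abcc3 difference was -0.47 (SE 0.16, adjusted p = 0.0529), which passed with the slide as a fixed block (-0.50, adjusted p = 0.0216). The difference between both ethanol effects was 0.51 (interval 0.031 to 0.99, adjusted p = 0.22), and it passed as the mean of both probes (0.83, adjusted p = 0.0232).

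The probes of Abcc3 did not give the same picture in HFD mice, and their first 30 bases are shown for that reason:
Abcc3 brighter probe: ttttttaaatgagcctttctcctcatggac
Abcc3 other probe: tctctgaaacggatccaggatttcctgaac
The other probe read 0.47, 0.023, 0.23, and 0.55 in chow mice and -0.19, -0.16, -1.53, and -0.72 in HFD mice. Its HFD difference was -0.97 (SE 0.25, adjusted p = 0.0189), against -0.14 (SE 0.16, adjusted p = 0.659) for the brighter probe, and HFD mouse 3 was the lowest of its group on the other probe and not on the brighter one. In 1B mice the probes gave -0.76 (adjusted p = 0.114) and -0.84, which have the same sign. HFD minus 1B was 0.71 (SE 0.16, adjusted p = 0.00953) on the brighter probe and -0.21 (adjusted p = 0.634) on the other. A statement on Abcc3 in HFD mice therefore depends on the probe.

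Abcc4, the pump for cyclic nucleotides and bile acids of the basolateral membrane, varied least of the 9 genes. Its brighter probe read -0.38, -0.17, -0.28, and -0.23 in chow mice, 0.045, -0.21, -0.21, and -0.25 in 1B mice, -0.20, -0.25, 0.00039, and -0.18 in HFD mice, and -0.29, -0.26, -0.18, -0.26, and -0.13 in HFD+1B mice. The 17 values spanned 0.424, and the groups overlapped in all comparisons. The difference between HFD+1B and chow mice was 0.041 with an interval of -0.13 to 0.21, and that of the other probe was 0.042 with an interval of -0.14 to 0.23. Both probes are dim too, so their ratios are compressed in the same way.

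**Figure D3:**
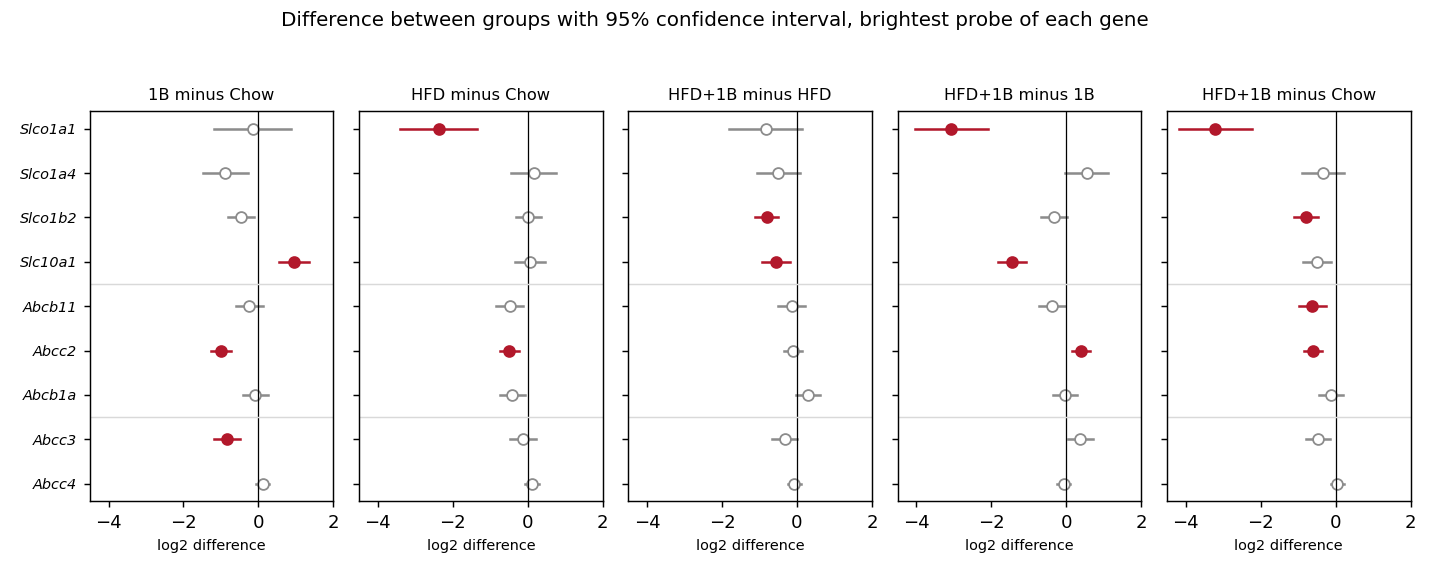
Log2 difference between groups (x axis) with 95% confidence interval for the 9 transporters (rows, uptake, canalicular efflux, and basolateral efflux from top to bottom) in 5 comparisons (panels), brightest probe. Filled red points passed the threshold: 3 in 1B minus chow, 2 in HFD minus chow, 2 in HFD+1B minus HFD, 3 in HFD+1B minus 1B, and 4 in HFD+1B minus chow.

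Read as a group, the transporters were called at these rates beside all 19349 genes. In 1B mice against chow, 1 of 9 rose and 2 fell, where 2.09% of all genes rose and 2.05% fell. In HFD mice against chow, 0 of 9 rose and 2 fell, where 4.5% of all genes rose and 6.47% fell. In HFD+1B mice against HFD, 0 rose and 2 fell, where 10.9% of all genes rose and 8.4% fell. Against 1B, 1 rose and 2 fell in HFD+1B mice, where 6.26% of all genes rose and 5.15% fell. Against chow, 0 rose and 4 fell in HFD+1B mice, where 8.89% of all genes rose and 7.4% fell. In HFD mice against 1B, a comparison not rerun under the alternatives, 3 rose and 2 fell, where 6.28% of all genes rose and 8.03% fell. For the difference between both ethanol effects, 1 was positive and 1 negative, where 2.67% of all genes were positive and 1.72% negative. The median log2 difference of the 9 genes was -0.24 in 1B mice, -0.14 in HFD mice, and -0.51 in HFD+1B mice against chow, beside 0.0078, 0.00033, and 0.00051 for all genes. Groups that did not overlap were also common among all genes. They lay apart for 12% of genes in 1B against chow, 19.4% in HFD against chow, and 15.6% in HFD+1B against chow. The share was 15.3% in HFD+1B against HFD, 11.4% in HFD+1B against 1B, and 19.7% in HFD against 1B. In the same order, 5, 3, 3, 1, 2, and 5 of the 9 transporters had groups apart. Comparisons that share the chow mice are not independent of each other.

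By role, the 4 uptake genes had a median difference of -0.65 in HFD+1B mice against chow, the 3 canalicular genes -0.60, and the 2 basolateral genes -0.21. In 1B mice the same medians were -0.31, -0.24, and -0.37. The uptake genes of 1B mice did not share a sign, with Slc10a1 at 0.95 and Slco1a4 at -0.88. When the 4 group means of each gene were put in order, the neighbors that differed past the threshold were 1B and HFD for Slco1a1 and for Slc10a1, and chow and HFD as well as HFD+1B and 1B for Abcc2. For the other 6 genes no pair of neighbors did, so the order of their groups is not fixed by these data.

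Other transporters of the liver were taken from lists of 13 uptake and 13 efflux genes, of which 11 and 13 were tested. Against chow, 2.09% of all genes rose and 2.05% fell in 1B mice, and 4.5% rose and 6.47% fell in HFD mice. In 1B mice against chow 1 uptake gene rose and 1 fell: Slc16a1, the monocarboxylate carrier MCT1, at 1.17 (SE 0.17, adjusted p = 0.00045), and Slc22a18 at -0.48. Of the efflux genes Abca1, which loads cholesterol onto apolipoprotein A-I, rose by 0.91, and both subunits of the canalicular sterol pump fell, Abcg8 by 1.94 (SE 0.25, adjusted p = 0.000157) and Abcg5 by 1.22 (SE 0.16, adjusted p = 0.000255). In HFD mice 1 uptake gene rose and 1 fell (Slc16a1 1.03, Slco2a1 -0.81), and 2 efflux genes rose and 1 fell (Abcb1b 0.56, the phospholipid floppase Abcb4 0.52, Abcg5 -0.52).

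In HFD+1B mice against chow, 1 of the 11 uptake genes rose (Slc16a1, 1.96) and 5 fell, led by Slc22a7, an organic anion carrier, at -1.51 (SE 0.29, adjusted p = 0.00137), and the fatty acid transport protein Slc27a2 at -0.75. Of the 13 efflux genes, 1 rose (Abca1, 1.56) and 2 fell (Abcg8 -1.45, Abcc6 -0.40). Of all genes, 8.89% rose and 7.4% fell in this comparison. In HFD+1B mice against HFD, 1 uptake gene rose (Slc16a1, 0.93) and 1 fell (Slc27a5, a bile acid CoA ligase, -0.37), and 1 efflux gene rose (Abca1, 1.51) and 3 fell (Abcg8 -0.77, Abcb1b -0.68, Abcb4 -0.55). There, 10.9% of all genes rose and 8.4% fell. The ethanol effect on Abcg5 differed between diets by 1.29 (SE 0.21, adjusted p = 0.00464). The basolateral bile acid exporter OST, encoded by Slc51a and Slc51b, gave -0.069 (adjusted p = 0.826) and 0.014 (adjusted p = 0.965) in HFD+1B mice against chow, and the OATP carrier Slco2b1 gave 0.35 (adjusted p = 0.156).

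**Figure D4:**
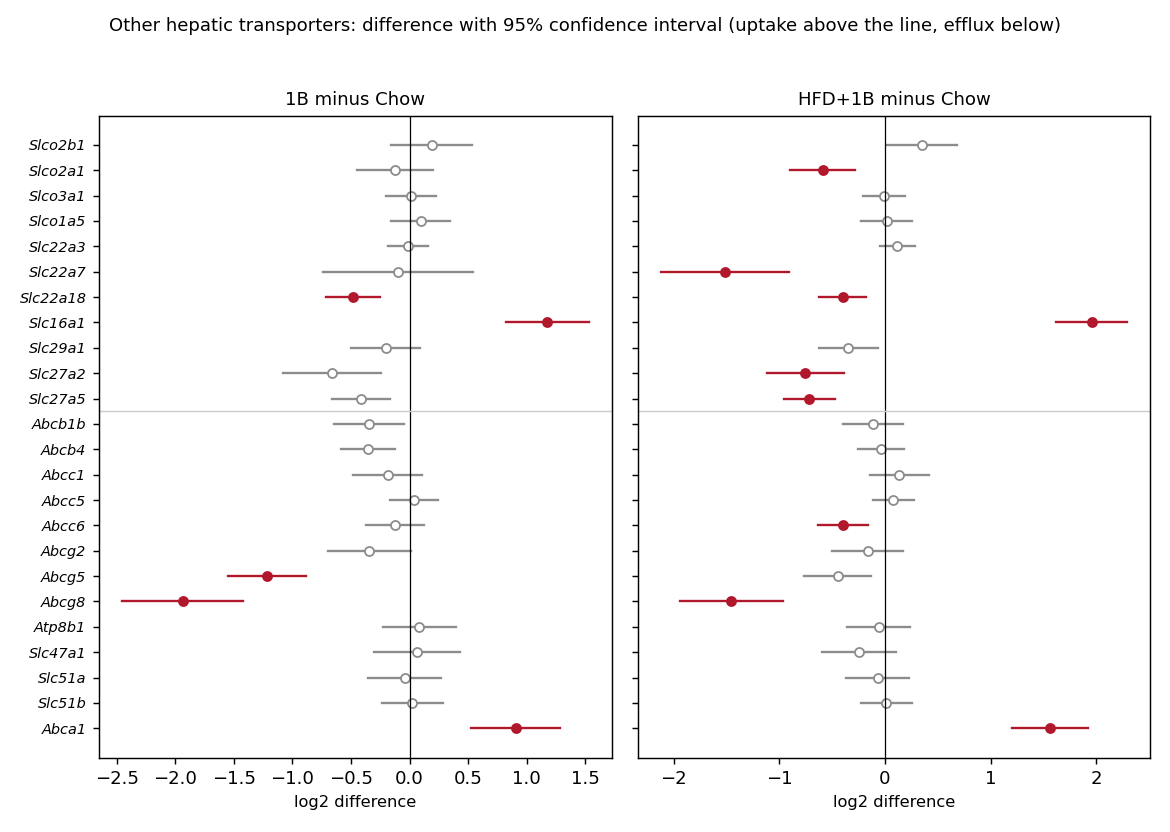
Log2 difference (x axis) with 95% confidence interval for 24 other hepatic transporters (rows, 11 uptake above the gray line and 13 efflux under it) in 1B minus chow and HFD+1B minus chow. Filled red points passed the threshold: Slc16a1 and Abca1 lie to the right in both panels, and Abcg8 to the left in both.

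Genes that handle the cargo and control of these transporters were counted in the same fit. Against chow, 2.09% of all genes rose and 2.05% fell in 1B mice, and 4.5% rose and 6.47% fell in HFD mice. In HFD+1B mice, 8.89% rose and 7.4% fell against chow. Of 20 tested transcription factors, 0 rose and 3 fell in 1B mice against chow: Nr0b2, the FXR-induced repressor SHP, at -1.44, Ppara at -1.06, and Nr1i3, encoding CAR, at -0.86. In HFD mice 1 rose (Nfe2l2, encoding NRF2, 0.58) and 2 fell (Foxa3 -1.30, Nr5a2 -0.62). These counts in HFD mice lay near the shares of all genes. In HFD+1B mice against chow 2 rose and 7 fell, led by Nr1i3 at -1.56, Nr0b2 at -1.43, and Ppara at -1.09. Nr1h4, encoding FXR, was -0.69 in HFD+1B mice against chow (adjusted p = 0.00123) and 0.071 in 1B mice (adjusted p = 0.914). Its ethanol effect differed between diets by -0.87 (SE 0.19, adjusted p = 0.0211). Of the 2 transporters called for this difference, Slc10a1 had the same sign (-1.52) and Abcc2 the opposite sign (0.89). Abcb11 was not called (0.10, adjusted p = 0.864). A link between Nr1h4 and the transporters was not tested. Nr1i2, encoding PXR, gave 0.020 (adjusted p = 0.959) in HFD+1B mice.

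Of 9 bile acid synthesis genes, 0 rose and 1 fell in 1B mice (Hsd3b7, -0.53), 0 rose and 2 fell in HFD mice (Cyp7b1 -1.67, Cyp27a1 -0.53), and 0 rose and 3 fell in HFD+1B mice against chow (Cyp7b1 -2.93, Cyp7a1 -2.11, Cyp27a1 -0.67). Cyp7a1, the rate-limiting enzyme of the classic pathway, had an ethanol effect that differed between diets by -1.77 (SE 0.35, adjusted p = 0.0125). Of 11 genes known as NRF2 targets, 0 rose and 3 fell in 1B mice (Mafg -0.90, Gclc -0.82, Gsta1 -0.69), and 4 rose and 4 fell in HFD+1B mice (Hmox1 0.89, Gstm3 0.86, Gclm -0.71). In the authors' table only 2 of these 11 genes rose and 1 fell in HFD+1B mice. In HFD mice 1 rose, Nqo1, at 0.60. Of 9 CAR and PXR targets, 1 rose in 1B mice (Cyp2b10, 1.75), 1 rose and 5 fell in HFD mice (Cyp2c29 -2.20, Ces2a -1.76, Cyp2b9 1.59), and 1 rose and 4 fell in HFD+1B mice against chow (Cyp2c29 -2.39, Ces2a -2.10, Cyp2b9 1.57). The shares of all genes that rose or fell in each comparison are those given with the transcription factors.

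Marker genes of other cell types moved with the groups. Shares of all genes called in each comparison are those given for the transporters read as a group. Relative to chow, the mean log2 level of the hepatocyte markers was 0.29 (range over mice 0.19 to 0.46) in 1B mice, -0.34 (-0.51 to -0.19) in HFD mice, and 0.12 (0.0057 to 0.27) in HFD+1B mice. A few genes carried the means of 1B and HFD mice. Ahsg differed by 1.12 (adjusted p = 0.000365) and Fgb by 1.47 (adjusted p = 0.108) in 1B mice, and Apob by -2.77 (adjusted p = 0.00275) in HFD mice. Besides Ahsg and Apob none of the 9 passed in 1B or HFD mice against chow. In HFD+1B mice 2 of the 9 rose and 1 fell against chow, and 3 rose and 1 fell against HFD. The medians over the 9 against chow were 0.17, -0.17, and -0.11 in 1B, HFD, and HFD+1B mice. The 6 stellate cell markers were at 0.25 (0.18 to 0.32), 0.65 (0.51 to 0.82), and 0.91 (0.41 to 1.25) in the same groups, and 4 of the 6 rose in HFD+1B mice against chow. The 7 cholangiocyte markers were at 0.017, -0.020, and 0.41, with 1 rise in HFD+1B mice against chow. The 6 Kupffer cell and macrophage markers tested were at -0.050, 0.45, and 0.40, and the 8 neutrophil markers at 0.094, -0.026, and 0.25. Of the neutrophil markers 2 rose in HFD+1B mice against chow (S100a8 1.46, S100a9 1.04), and their median was -0.060. The 6 sinusoidal endothelial markers were at 0.20, 0.38, and 0.20 but moved in both directions in HFD+1B mice against chow, where Lyve1 rose by 3.19 and 3 fell (Kdr -1.05, Clec4g -0.82, Oit3 -0.49), with a median of -0.20. With the mean over probes 1 fell in place of 3. Against HFD, 4 of the 6 fell and 1 rose, with a median of -0.63. In HFD+1B mice the 6 pancreatic acinar markers were at 0.096, the 4 adipocyte markers at -0.077, and the 4 kidney tubule markers at -0.055. Their part in the transporter results was not tested.

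Among the 4 intestinal markers, at 0.75 (0.59 to 1.02) in HFD+1B mice, was Slc10a2, the apical sodium-dependent bile acid carrier ASBT, known from ileum and bile duct epithelium. Its mean log2 ratio was -1.64 (SD 0.075, n = 4) in chow mice, -1.15 (SD 0.29, n = 4) in 1B mice, -1.62 (SD 0.26, n = 4) in HFD mice, and 0.30 (SD 0.52, n = 5) in HFD+1B mice. HFD+1B minus chow was 1.94 (SE 0.21, adjusted p = 6.3e-06), and its ethanol effect differed between diets by 1.43 (SE 0.30, adjusted p = 0.0155), opposite in sign to that of its hepatocyte relative Slc10a1.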

How the data were processed

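Liver RNA of 17 mice was hybridized on 2-color Agilent arrays, with Cy5 liver and a Cy3 common reference on each and no dye swap. The authors extracted spots with Feature Extraction 11.5.1.1 and deposited raw median signal and background intensity per spot, and a table of log2 ratios of dye-normalized processed signals per probe, which equaled the log2 ratio of the scanner files to within 2.7e-06 for 40901 single-spot probes. From the deposited intensity values, background was corrected by normexp (offset 50), outlier spots and controls were left out, loess was run within arrays, and spots of a probe were averaged. Probes were tested when well above background in Cy5 on at least 4 arrays with a value in each group. Group means were fitted with limma 3.58.1 in R 4.3.3 (data.table package, version 1.17.8), with Benjamini-Hochberg adjustment. The fit and adjustment were tested on simulated log2 ratios, and the steps before the fit were not. Missing spots were dropped, not imputed. Where nothing but the array number separates mice of a group, p-values measure the spread between these samples. The number of arrays limits the precision.

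A gene was read on its brightest tested probe. Text names all members, genes of the lists taken from the called genes with the 3 largest differences of a list in the comparisons described, close counterparts of members, and the 3 genes nearest to a member with an SD of at least 0.7. The lists were other uptake and efflux transporters, transcription factors, NRF2 targets, CAR and PXR targets, bile acid synthesis, male-biased and female-biased genes, and markers of 10 cell types, and 1 gene of the uptake list is not reported here. Among marker genes, Fgb and Oit3 were named after their values were seen. The lists came from general knowledge and overlap (Cyp7b1 and Cyp2b9 are each in 2). Members and lists were chosen with earlier results of these data known. Promoters are from RefSeq (GRCm38.p6). Replicate numbers were checked. Same-numbered mice were more alike in the median than other mice but not in every pair, and the number was used as a block only in an alternative. Alternatives were other background corrections, normalizations, filters, blocks, tests, and leaving out each mouse.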

Additional observations from a re-analysis of the deposited data

Results flagged for a closer look

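Slc10a1 and Abcc2 stand out because the effect of ethanol differed between diets in a test of that difference. The value for Slc10a1 was -1.52 on the log2 scale (SE 0.26, adjusted p = 0.00573), from higher in 4 of 4 1B mice to lower on HFD. The decrease on HFD lost its call in 11 of 33 alternatives, and HFD and HFD+1B mice overlapped. The value for Abcc2 was 0.888 (SE 0.17, adjusted p = 0.0109), from a decrease on chow diet to no detectable one on HFD, and it did not pass with Cy5 alone.

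In 1B mice, mouse 2 lay apart for Abcb1a, with a gap to its nearest neighbor of 0.884 of the group range, and mouse 1 lay apart for Abcc4, with a gap of 0.864. These were 2 of 47 groups of values examined, and chance gives about 5% of groups such a gap.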

How the results depend on the processing

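The number of transporters called moved by over 1.5 times as follows. In HFD+1B against HFD (2 called) it was 1 with the authors' table, with median centring in place of loess, with Cy5 alone, with the methods' Tukey test before or after Benjamini-Hochberg adjustment, and with the comparison's own groups alone, and 0 when a fold of at least 2 was asked for. With Cy5 alone it was 1 in 1B against chow (3 called), 1 in HFD against chow (2 called), and 1 for the difference between ethanol effects (2 called). With the fold rule it was 0 in 1B against chow, 1 in HFD against chow, 1 in HFD+1B against chow (4 called), and 1 for the difference between ethanol effects. With the adjusted Tukey test it was 1 in 1B against chow and 0 in HFD against chow. Leaving out 1 mouse at a time gave 1 to 2 calls in HFD+1B against HFD, with 1 without HFD mouse 1, HFD mouse 4, or HFD+1B mouse 4, and 2 to 5 in HFD+1B against 1B, with 5 without HFD+1B mouse 1 (Slco1a4 and Abcc3 added). The Tukey test and the fit of the comparison's groups alone give no value for the difference between ethanol effects.

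Of 24 pairs of same-numbered mice, 16 correlated above 0.1 in their deviations from group means, with a median of 0.17 and a lowest value of -0.13. Of 84 pairs with different numbers, 19 did, with a median of -0.050. Same-numbered mice were more alike in the median but not in every pair, and some of them shared a slide. The main fit did not use the number. With the replicate number as a block, 4 transporters were called in HFD+1B against HFD (Slco1a4 and Abcb1a added), 2 in HFD+1B against 1B, and 6 in HFD+1B against chow, and Abcb1a in HFD+1B against 1B was 0.048.

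The 16 called differences kept their sign in all 522 alternative values and their call in 472. Of 38 differences not called, 28 of 1233 alternative values passed and 32 changed sign without passing. The latter were, with median centring, Slco1b2 -0.32, Slc10a1 -0.16, and Abcc4 -0.023 in HFD against chow, Abcb11 0.14, Abcc2 0.17, and Abcc4 0.14 in HFD+1B against HFD, Abcb1a 0.025 and Abcc4 0.0048 in HFD+1B against 1B, and Slco1b2 0.024 and Abcc4 0.028 for the difference between ethanol effects. With Cy5 alone they were Abcb1a 0.17 in 1B against chow, Slco1a4 -0.29, Slc10a1 -0.090, Abcb1a 0.012, and Abcc3 0.031 in HFD against chow, Abcb1a 0.039 and Abcc4 -0.046 in HFD+1B against chow, and Abcb1a -0.14 for the difference between ethanol effects. The mean over probes gave Abcc3 0.032 in HFD+1B against HFD. With 1 mouse left out at a time, Slco1a4 ranged from -0.0036 to 0.39, Slco1b2 from -0.060 to 0.15, and Slc10a1 from -0.032 to 0.15 in HFD against chow, Abcb11 from -0.27 to 0.0027 in HFD+1B against HFD and from -0.025 to 0.25 for the difference between ethanol effects, and Abcb1a from -0.12 to 0.15 in HFD+1B against 1B. The cause of these moves was not tested. Dim probes such as those of Abcc4 and Abcb1a give compressed ratios, and small changes there could not be detected.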
